A study of Mus musculus with 3 samples.

Results

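Th2 chemokines and alternative activation genes were followed as 8 genes in LPS-challenged RAW264.7 macrophages: the chemokines Ccl17, Ccl22 and Ccl24, the alternative activation marks Mrc1, Retnla and Chil3, and the receptor chains Il4ra and Il13ra1. They were taken by gene name from the 36870 gene names on the array and are measured by 9 probes, 1 for each gene and a second one for Il4ra. The genes were selected on the measured log2 intensities of LOC1 + LPS and LOC3 + LPS against LPS, with those differences already known, so the differences are given as a description. RAW264.7 cells are an established line of mouse macrophages, and LPS, from the outer membrane of Gram-negative bacteria, activates their Toll-like receptor 4 (TLR4). In the LPS group, macrophages received LPS and no bacteria. In the LOC1 + LPS and LOC3 + LPS groups, macrophages were first cultured with Lactiplantibacillus plantarum LOC1 or LOC3, strains isolated from fresh tea leaves, and were then challenged with LPS. The LPS challenge lasted 3 h in every group, at 50 ng/mL in the methods of the study, while its results text names a higher dose. The lactobacilli were present for 12 h in the series' design text and for 24 h in the methods, which add that they were washed away before LPS. Each of the 3 groups has 1 array, so no SD between cultures, test or p-value can be given for any difference between groups. Unchallenged macrophages enter only as the reference of the ratios that the authors deposited, since their own array is not analysed here.

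Th2 cells are the helper T cells of allergy and of defence against parasites, and they secrete IL-4 and IL-13. Both cytokines act on macrophages through the receptor chain IL-4Rα, which pairs either with the common gamma chain or with IL-13Rα1, and the signal runs through JAK kinases to the transcription factor STAT6. Macrophages that receive it enter the state called alternative activation, with more mannose receptor, resistin-like and chitinase-like proteins and chemokines that attract Th2 cells and eosinophils. LPS drives the other classical state, with inflammatory cytokines and nitric oxide. Nitric oxide synthase is the textbook mark of that state in mouse cells, as arginase 1 is of the alternative one.

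The arrays were 1-colour Agilent mouse arrays, on which a probe's brightness, its processed intensity, stands for the abundance of its transcript. Intensities of different probes cannot be compared, so differences are taken only within a probe. The summed intensities given below for marker lists mix probes and do not compare the levels of their genes. Levels are log2 intensities minus the 75th percentile of the array in question, which lay at 367 with LPS, 332 with LOC1 + LPS and 334 with LOC3 + LPS. Between 47.8% and 51.9% of the 56605 probes were well above background, the scanner software's call for a signal clear of its surroundings. Signals without that call that lay under the lowest one with it were raised to it. This limit was 16.3 on the LPS array, 14.5 on the LOC1 + LPS array and 19.8 on the LOC3 + LPS array. A fold against a signal without the call is written as "at least". Genes entered a comparison if either of its 2 arrays had a signal well above background, and 2-fold, or 1 on the log2 scale, was the threshold. Probes printed 10 times gave a technical SD of a log2 difference of 0.06 for bright probes and of 0.30 to 0.35 for dim ones. Dim probes are those whose mean log2 signal lay more than 1 under the 75th percentile. The bright SD rests on 270 probes per array and the dim SD, used for Ccl17 and Ccl24, on 9 to 11. The intervals given below are 95% intervals from this spot noise and leave out the variation between cultures. All 12 macrophage markers examined, among them Adgre1, Cd68 and Lyz2, were well above background on the 3 arrays.

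The clearest differences were in Ccl17 and Ccl24. Their signals were an order of magnitude or more lower in lactobacilli-treated macrophages than in LPS-challenged controls, to a similar extent with LOC1 and LOC3. Under another background correction, normexp, the differences were smaller, with Ccl24 at -2.86 and -3.09 on the log2 scale, under an order of magnitude. Ccl22 and Mrc1 could be detected with LPS alone. Retnla was not well above background on any array. The receptor chain Il13ra1 and the brighter probe of Il4ra were lower by less than 2-fold with both strains, while the dimmer Il4ra probe differed by -0.06 and 0.13 on the log2 scale, and Chil3 was slightly higher. Of the 7 members that could be compared between LOC1 + LPS and LPS, 4 were at least 2-fold lower and 0 at least 2-fold higher, where 3.5% of the 20018 genes compared were lower and 2.71% higher. Between LOC3 + LPS and LPS, 3 of 7 were lower and 0 higher, where 2.92% of 19789 genes were lower and 3.19% higher. These shares are background and carry no weight for the members, since the members were chosen with these contrasts known. Both comparisons share the single LPS array, and Ccl22 and Mrc1 entered through that array alone and so could only come out lower. On the log2 scale, the difference of all genes compared had a median of 0.03 for LOC1 and of 0.07 for LOC3.

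**Figure D1:**
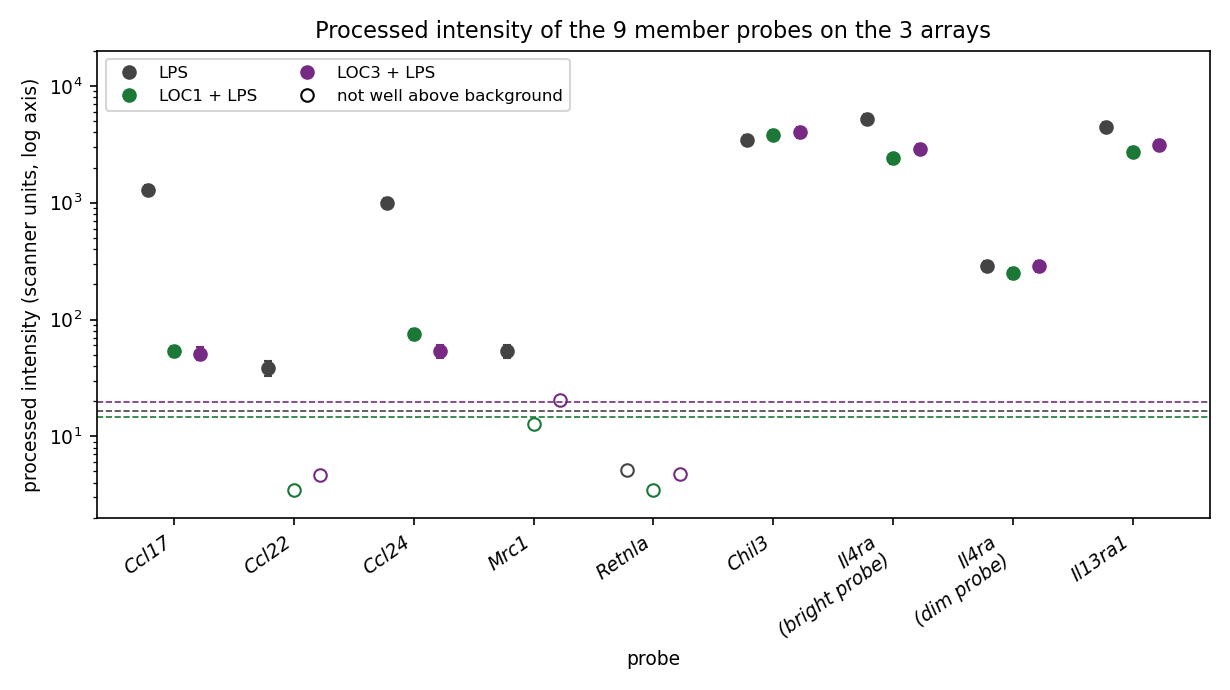
Processed intensity (scanner units, log axis) of the 9 member probes on the LPS, LOC1 + LPS and LOC3 + LPS arrays, 1 array per group; bars are the scanner software's error of the intensity, open circles are signals not well above background, and dashed lines are the lowest signal well above background of each array. Ccl17 and Ccl24 lie at 1297 and 1001 with LPS and at or under 74.9 with either strain, while Chil3, Il13ra1 and the bright Il4ra probe stay at or above 2396 on every array; heights of different probes are not comparable.

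Ccl17, also known as TARC, is a chemokine that attracts Th2 and regulatory T cells through the receptor CCR4. Its probe lies at chr8:97335770-97335829 of the mouse build mm9, on the forward strand. The processed intensity of Ccl17 was 1297 with LPS, 53.7 with LOC1 + LPS and 51.2 with LOC3 + LPS, and it was well above background on each array. The LPS array stood alone at the high end and the other two were alike. The log2 difference was -4.45 with LOC1 (interval -5.03 to -3.87), which is 21.9-fold lower. With LOC3 it was -4.53 (interval -5.20 to -3.85), which is 23.0-fold lower. In both comparisons Ccl17 had the lowest difference of all genes compared, rank 1 of 20018 and rank 1 of 19789. Both arrays had a signal clear of background for 18182 and 17529 of these genes, and the others enter the ranks at their bound, so a true difference among them may lie lower. Between the strains the log2 difference, LOC3 minus LOC1, was -0.08 with an interval of -0.74 to 0.59, within the spot noise.

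Ccl24, also called eotaxin-2, attracts eosinophils through the receptor CCR3. The Ccl24 probe lies on the reverse strand at chr5:136046485-136046544 (mm9). Its processed intensity was 1001 with LPS, 74.9 with LOC1 + LPS and 53.9 with LOC3 + LPS. As with Ccl17, only the LPS array was high. The log2 difference was -3.60 with LOC1, which is 12.1-fold lower and rank 11 from the lowest, and its interval was -4.18 to -3.01. With LOC3 it was -4.08, which is 16.9-fold lower and rank 2, with an interval of -4.75 to -3.40. The strains differed by -0.48, LOC3 minus LOC1, and the interval of -1.15 to 0.19 includes 0, so an order of the strains was not detectable at this precision.

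Ccl22, also called MDC, is the second ligand of CCR4. The probe, at chr8:97274709-97274768 (mm9, forward strand), had a processed intensity of 38.3 with LPS. It read 3.46 with LOC1 + LPS and 4.70 with LOC3 + LPS, neither well above background. This sets the difference of Ccl22 from LPS to at least 2.39-fold lower for LOC1 + LPS and at least 1.76-fold for LOC3 + LPS, and the strains cannot be set in an order. With LOC3 the bound stays under the 2-fold threshold because the LOC3 + LPS array has the highest background limit. Under normexp background correction the log2 differences of Ccl22 were -0.28 and -0.24, under 2-fold with both strains.

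Ccl22 and Ccl17 lie close together on mouse chromosome 8. In RefSeq (assembly GRCm38.p6) the genes between them are Gnb1-ps3, Cx3cl1 and Gm51543, of which only Cx3cl1 has a probe by name. Cx3cl1 encodes fractalkine, the ligand of CX3CR1. Its intensity was 80.1 with LPS, 15.1 with LOC1 + LPS (not well above background) and 25.6 with LOC3 + LPS. Against LPS the difference was at least 4.79-fold lower for LOC1 + LPS and 2.84-fold lower for LOC3 + LPS. The 3 neighbouring chemokine genes on the array were thus each highest with LPS alone.

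The sequence before the start of 4 members is shown because IL-4 responsive genes are known to be controlled there by STAT6, and because these members differ in how they behaved. RefSeq promoters (GRCm38.p6, 250 bases before to 50 after the gene's start) were matched by symbol for 7 of the 8 members, all but Ccl24. Both strands were searched for the STAT6 motif, which is TTC and GAA with any 4 bases between them, the related GAS motif TTCNNNGAA of other STAT factors, the AP-1 motif TGANTCA, the C/EBP motif TTGCNNAA, an interferon-response motif, GAAA and GAAA with any 2 bases between them, and the NF-kB motif. The 250 bases before the start are given 5′ to 3′ on the gene's strand, with motif matches in capitals. They are chr8:94810203-94810452 for Ccl17, chr8:94745434-94745683 for Ccl22 and chr16:48842359-48842608 for Retnla, on the forward strand, and chr3:106167565-106167814 for Chil3, on the reverse strand.
Ccl17: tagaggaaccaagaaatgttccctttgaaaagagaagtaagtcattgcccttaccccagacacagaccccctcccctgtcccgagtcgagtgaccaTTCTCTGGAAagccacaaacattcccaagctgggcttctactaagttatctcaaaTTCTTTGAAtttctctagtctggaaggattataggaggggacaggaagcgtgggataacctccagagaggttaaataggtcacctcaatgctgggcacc
Ccl22: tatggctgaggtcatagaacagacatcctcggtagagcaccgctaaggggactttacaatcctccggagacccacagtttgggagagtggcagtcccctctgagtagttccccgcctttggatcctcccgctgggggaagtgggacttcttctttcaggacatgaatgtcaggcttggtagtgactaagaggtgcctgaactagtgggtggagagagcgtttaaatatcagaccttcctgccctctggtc
Retnla: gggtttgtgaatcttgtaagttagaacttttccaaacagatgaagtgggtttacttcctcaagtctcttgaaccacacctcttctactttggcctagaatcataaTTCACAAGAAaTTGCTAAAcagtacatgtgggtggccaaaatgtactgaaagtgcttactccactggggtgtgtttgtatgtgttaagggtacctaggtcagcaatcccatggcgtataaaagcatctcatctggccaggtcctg
Chil3: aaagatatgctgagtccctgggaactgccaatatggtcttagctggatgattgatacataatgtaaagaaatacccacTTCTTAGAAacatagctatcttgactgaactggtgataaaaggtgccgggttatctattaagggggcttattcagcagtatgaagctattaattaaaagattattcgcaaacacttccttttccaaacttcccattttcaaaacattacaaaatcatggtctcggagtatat

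The Ccl17 promoter held 1 STAT6 match, TTCTCTGGAA, at -154 to -145 from the start and 1 GAS match, TTCTTTGAA, at -99 to -91. Retnla held a STAT6 match, TTCACAAGAA, at -145 to -136 beside a C/EBP match, TTGCTAAA, at -134 to -127. Chil3 held a GAS match, TTCTTAGAA, at -172 to -164. None of these matches overlap each other. The searched motifs were not found in the windows of Ccl22, Mrc1 and Il13ra1, and that of Il4ra held an NF-kB match after its start, at 21 to 30. Of 32851 promoters of the same length, 6.95% held the STAT6 motif, 8.30% the GAS motif, 10.8% the C/EBP motif, 7.81% the AP-1 motif, 4.51% the NF-kB motif and 3.44% the interferon-response motif. A STAT6 match was shared by Ccl17, which was bright with LPS and far lower with either strain, and by Retnla, which was not well above background in any group. A match is a string of letters, and binding was not measured.

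Of the alternative activation marks, Mrc1 encodes the mannose receptor CD206, which takes up glycoproteins. Its probe lies at chr2:14253273-14253332 (mm9, forward strand). Its processed intensity was 53.3 with LPS, 12.8 with LOC1 + LPS and 20.4 with LOC3 + LPS, and only the LPS signal was well above background. As bounds, LOC1 + LPS was at least 3.32-fold lower and LOC3 + LPS at least 2.37-fold lower than LPS. Under normexp background correction the log2 differences of Mrc1 were -0.47 and -0.26, under 2-fold. Retnla encodes the secreted protein FIZZ1, among the most used marks of the alternative state in mice. Its probe, at chr16:48844447-48844506 (mm9, forward strand), read 5.10, 3.49 and 4.71 on the LPS, LOC1 + LPS and LOC3 + LPS arrays. These readings lie under the background limits and give no fold.

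Chil3, on older arrays Chi3l3, encodes the secreted chitinase-like protein Ym1. Its probe is at chr3:105950485-105950544 (mm9, reverse strand). Its processed intensity was 3474 with LPS, 3831 with LOC1 + LPS and 4012 with LOC3 + LPS. The log2 difference was 0.29 with LOC1 (interval 0.17 to 0.40) and 0.35 with LOC3 (interval 0.22 to 0.47), which are 1.22-fold and 1.27-fold higher. Both intervals exclude 0 on spot noise alone, while the scanner software's own error of each difference, 0.20, is not much smaller than the difference. The strains were within the spot noise of each other, at 0.06 with an interval of -0.06 to 0.18. Among the 3 marks, 1 was thus bright and slightly higher, 1 was lower from a faint signal and 1 was not detected.

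Il4ra encodes the receptor chain that IL-4 and IL-13 share, and its 2 probes disagreed. The brighter probe, at chr7:132721137-132721196 (mm9, forward strand) and position 3242 of the transcript, read a processed intensity of 5252 with LPS, 2396 with LOC1 + LPS and 2887 with LOC3 + LPS. It was 1.98-fold lower with LOC1, a log2 difference of -0.99 (interval -1.10 to -0.87), just short of the threshold. With LOC3 it was 1.65-fold lower, at -0.73 (interval -0.85 to -0.60). The dimmer probe, at chr7:132712550-132712609 and position 466 of the transcript, lies 8587 bases upstream in the genome. It is shown because it gives the other reading of the gene and tells a reader which part of the transcript was measured, and its 60 bases keep 1 reading frame open.
Il4ra, dimmer probe: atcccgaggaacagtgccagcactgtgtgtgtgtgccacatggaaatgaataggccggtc
This probe had a processed intensity of 288 with LPS, 249 with LOC1 + LPS and 286 with LOC3 + LPS. Its log2 difference was -0.06 with LOC1 (interval -0.18 to 0.05) and 0.13 with LOC3 (interval 0.00 to 0.25). Whether the probes read different transcripts of Il4ra was not tested. Between the strains both probes were higher with LOC3, by 0.26 and 0.19.

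Il13ra1 encodes the chain that joins IL-4Rα to form the receptor for IL-13. Its probe is at chrX:33711118-33711177 (mm9, forward strand). Its processed intensity was 4449 with LPS, 2718 with LOC1 + LPS and 3139 with LOC3 + LPS. The order was the same as for the bright Il4ra probe, with LPS highest and LOC1 + LPS lowest. The log2 difference was -0.57 with LOC1 (interval -0.68 to -0.45) and -0.37 with LOC3 (interval -0.49 to -0.24), which are 1.48-fold and 1.29-fold lower. LOC3 + LPS was above LOC1 + LPS by 0.20 (interval 0.08 to 0.32), beyond the spot noise but as large as the scanner software's error. In the direct comparison of LOC3 + LPS with LOC1 + LPS, 0 of the 5 members compared were past 2-fold, where 0.8% of 19381 genes were at least 2-fold lower and 1.83% at least 2-fold higher with LOC3.

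**Figure D2:**
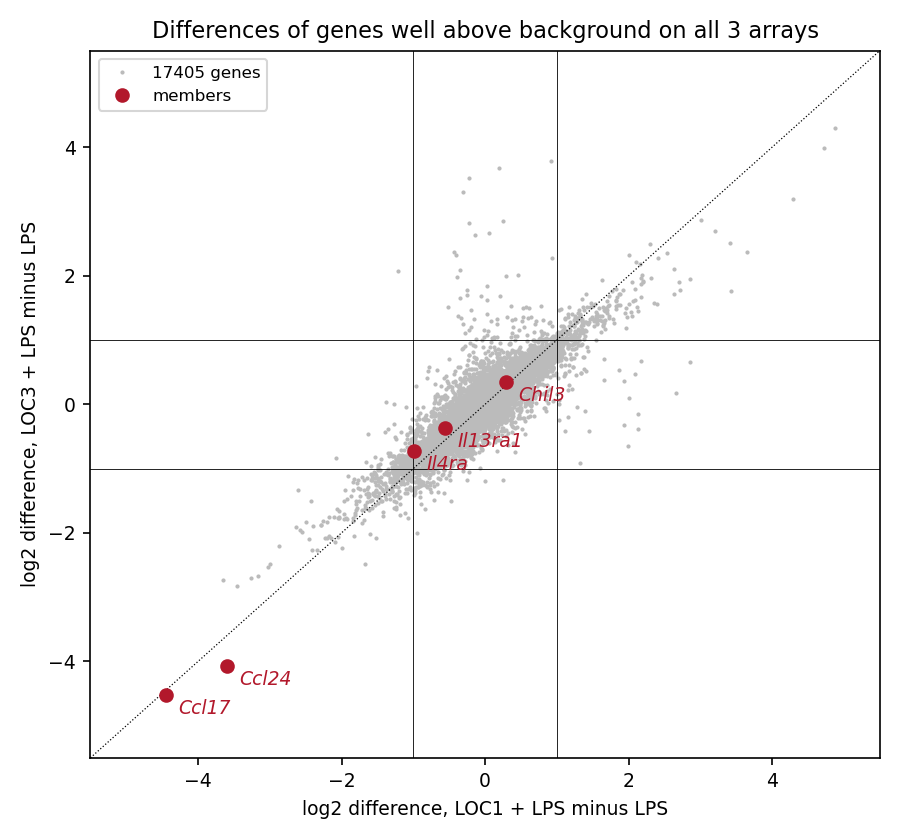
Log2 differences from the LPS array with LOC1 (horizontal axis) and with LOC3 (vertical axis) for 17405 genes detected on every array (grey), with the 5 members among them in red, solid lines at 2-fold and a dotted line of equal differences. Both axes share the LPS array, so points spread along the dotted line in any case; Ccl17 and Ccl24 lie at the lower left, apart from the other genes.

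For Ccl17 and Ccl24, the 3 genes nearest by the pair of log2 differences were taken, with no cut on the distance. Among 17405 genes well above background on all arrays, each was the other's nearest gene, at a Euclidean distance of 0.97 over the 2 differences. The next were Saa2, which encodes the acute phase protein serum amyloid A2, and Il1r2, a decoy receptor for IL-1 that itself counts as a mark of alternative activation. Saa2 was at a distance of 1.96 from Ccl17 and 1.35 from Ccl24. Its intensity was 471 with LPS, 33.7 with LOC1 + LPS and 64.6 with LOC3 + LPS. Il1r2 was at a distance of 1.97 from Ccl17 and 1.26 from Ccl24, and its intensity was 536 with LPS, 44.2 with LOC1 + LPS and 68.7 with LOC3 + LPS. This likeness is over 2 differences that share 1 array and is a description only.

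The response of the members to LPS itself could be read from the log2 ratios to unchallenged macrophages that the authors deposited for probes past 2-fold. A ratio for LPS was listed for 4 of the 9 member probes, where 13.4% of the 56605 probes have one. Ccl17 was listed at 7.02 with LPS, 2.57 with LOC1 + LPS and 2.50 with LOC3 + LPS. The signal implied for unchallenged macrophages, an intensity of 9.99 on the scale of the LPS array, is below that array's limit of 16.3, so these are at least 79.5-fold, 3.64-fold and 3.46-fold higher. Ccl17 was thus far above unchallenged macrophages with LPS and remained above them, by much less, with either strain.

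Ccl24 went the other way. Its deposited log2 ratio was -1.32 with LPS, -4.92 with LOC1 + LPS and -5.40 with LOC3 + LPS, which is 2.50-fold, 30.2-fold and 42.1-fold lower than in unchallenged macrophages, where the implied intensity was 2505. The lower signal of Ccl24 with the strains therefore lay further from the unchallenged level, and that of Ccl17 nearer to it. Mrc1 had the pattern of Ccl24, with an implied unchallenged intensity of 85.1. It had no listed ratio with LPS, where the value rebuilt from the intensities was -0.67, and its bounds were at least 5.30-fold lower with LOC1 + LPS and at least 3.78-fold lower with LOC3 + LPS.

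Il13ra1 was higher than in unchallenged macrophages in every group. It was listed at 1.99 with LPS, 1.43 with LOC1 + LPS and 1.63 with LOC3 + LPS, which is 3.99-fold, 2.69-fold and 3.1-fold higher. The bright probe of Il4ra was listed at 1.93 with LPS and 1.21 with LOC3 + LPS. With LOC1 + LPS its cell is blank, and the rebuilt value is 0.94, under the threshold. Ccl22, Chil3, Retnla and the dimmer Il4ra probe have no listed ratio in any group, and no value for unchallenged macrophages is given for them.

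**Figure D3:**
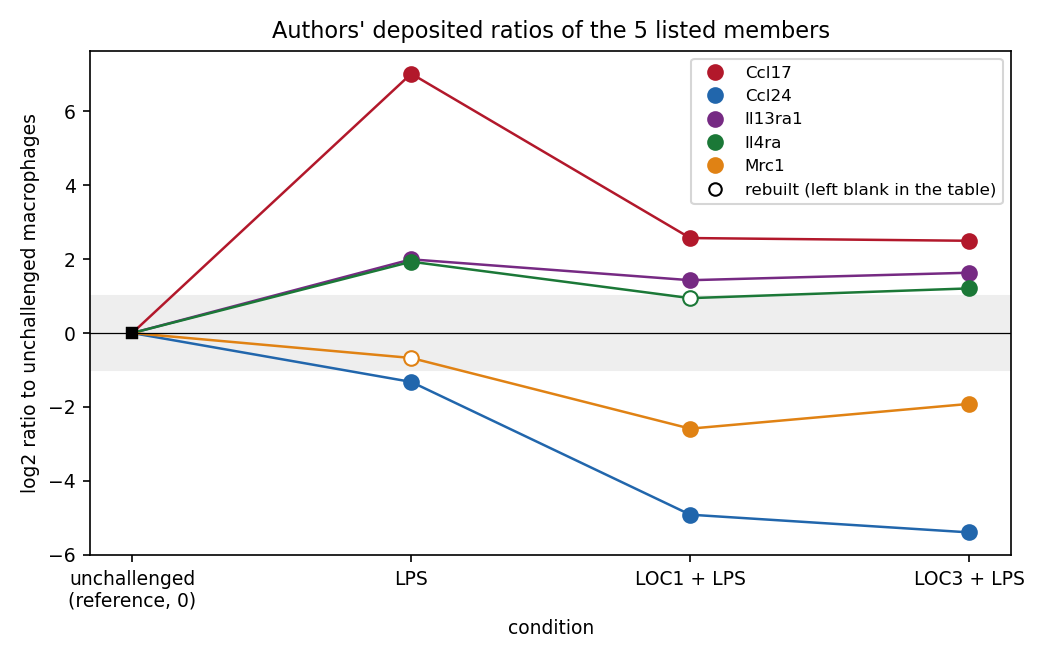
Log2 ratio to unchallenged macrophages (vertical axis) of the 5 members with a ratio in the authors' table, for the LPS, LOC1 + LPS and LOC3 + LPS arrays; open circles are blank cells rebuilt from the intensities, and the grey band marks changes under 2-fold. Ccl17 rises to 7.02 with LPS and stands at 2.57 and 2.50 with the strains, as listed and before the bounds given in the text, while Ccl24 stands at -1.32 and then at -4.92 and -5.40.

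The genes around the members were summarised in lists, also chosen with earlier results of these data known. Of 18 genes of IL-4 and IL-13 signalling, 16 could be compared in each case. With LOC1, 1 was at least 2-fold higher and 1 lower, beside 2.71% and 3.5% of all genes. With LOC3, 0 were higher and 1 lower, beside 3.19% and 2.92%. The medians were -0.04 and -0.05, beside 0.03 and 0.07 over all genes. The gene past the threshold with both strains was Cish, an inhibitor induced by cytokine signals through STAT factors. Its intensity was 2234 with LPS, 821 with LOC1 + LPS and 826 with LOC3 + LPS, a log2 difference of -1.30 with each strain. Stat6, the transcription factor of the pathway, had 1593, 1263 and 1301, differences of -0.19 and -0.15. Il13ra2, a decoy receptor for IL-13, was higher with the strains, at 36.1 with LPS, 65.3 with LOC1 + LPS and 59.5 with LOC3 + LPS, with differences of 1.0 and 0.86. Jak3, a kinase bound to the common gamma chain, had differences of 0.71 and 0.72 for its brightest probe, while its other detected probes reached down to -0.03 and -0.18. Of the cytokines themselves, Il4 was not well above background on any array, with intensities of 4.02, 5.13 and 4.85. Il13 stood close to the limit, at 27.8, 22.3 and 22.7, and the last of these was not well above background.

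Of 26 other alternative activation genes, 18 could be compared with LOC1, of which 14 were below 0 and 4 above. With LOC3, 14 of 17 were below 0. Genes well above background with LPS alone could only fall below 0, and those with a strain alone only above. The medians were -0.32 and -0.27, beside 0.03 and 0.07 over all genes. With LOC1, 3 genes were at least 2-fold lower and 1 higher, beside 3.5% and 2.71% of all genes. With LOC3, 2 were lower and 1 higher, beside 2.92% and 3.19%. Those lower with both strains were Il1r2 and Clec7a, which encodes the fungal receptor dectin-1. The intensity of Clec7a was 622 with LPS, 219 with LOC1 + LPS and 269 with LOC3 + LPS, differences of -1.36 and -1.07. Il10, the anti-inflammatory cytokine, had 2416, 969 and 1628, with differences of -1.17 and -0.43. The study's text, by contrast, reports no change of Il10 with the strains on the arrays, nor with LOC1 by PCR. The higher gene, Vegfa, was read from a probe not well above background with LPS. Its other detected probe stood at -0.46 with LOC1 and at -0.02 with LOC3. Arg1, arginase 1, was not well above background on any array, at 4.31, 3.49 and 4.64. In all, 8 of the 26 genes were not well above background on any array.

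Regulators of alternative activation differed in both directions. Of 14, 1 was at least 2-fold higher and 1 lower with each strain. Of all genes, 2.71% were higher and 3.5% lower with LOC1, and 3.19% and 2.92% with LOC3. The medians of the 14 were -0.22 and -0.14. The intensity of Nr4a1, an orphan nuclear receptor, was 1627 with LPS, 3107 with LOC1 + LPS and 3269 with LOC3 + LPS, differences of 1.08 and 1.14. Klf4, a transcription factor that acts with STAT6, was higher by 0.83 and 0.88. Ppard, the lipid-sensing receptor PPARδ, differed by -0.88 and -0.84. The gene lower with both strains was Irf4, which is required for alternative activation. Its intensity was 113 with LPS and 51.1 with LOC1 + LPS, a difference of -1.0, at the threshold. With LOC3 + LPS it read 11.8, not well above background, and was at least 5.18-fold lower than with LPS.

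Classical activation genes also differed in both directions. Of 20 genes, 14 were above 0 with LOC1 and 15 with LOC3, with medians of 0.35 and 0.37, beside 0.03 and 0.07 over all genes. Under the other scalings the medians stayed above 0 for this list and below 0 for the other alternative activation genes. Both lists were chosen with earlier results of these data known, and a difference between them was not tested. With each strain 3 of the 20 were at least 2-fold higher and 2 lower. Of all genes, 2.71% were higher and 3.5% lower with LOC1, and 3.19% and 2.92% with LOC3. Under median scaling the genes of the list past 2-fold numbered 8 in place of 5 with LOC1 and 6 in place of 5 with LOC3. For Nos2, inducible nitric oxide synthase, the arrays read 19696 with LPS, 32895 with LOC1 + LPS and 33264 with LOC3 + LPS, a difference of 0.89 with each strain. The genes past the threshold upward were Cxcl9, a chemokine for Th1 cells, at 2.01 and 2.32, Fpr2, a receptor for formylated peptides, at 1.70 and 1.60, and Il6 at 1.44 and 1.26. Those lower were Il12b, the p40 subunit of IL-12, at -2.04 and -1.75, and Ccr7, at -2.42 for LOC1 + LPS and by a bound of at least 5.28-fold for LOC3 + LPS. A lower signal of Th2 chemokines thus stood beside a lower signal of Il12b, a cytokine of the Th1 side.

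The receptors of the Th2 chemokines differed in whether they were detected. Ccr3, the receptor of Ccl24, read 16.4, 7.50 and 11.0 and was not well above background on any array. Ccr4, the receptor of Ccl17 and Ccl22, was well above background only with LOC1 + LPS, at 57.3, and read 3.56 with LPS and 4.29 with LOC3 + LPS. Of the 13 genes of that list, which also holds other eotaxins and alarmins, 7 could be compared. With LOC1, 2 were at least 2-fold higher and 0 lower, beside 2.71% and 3.5% of all genes. With LOC3, 1 was higher and 0 lower, beside 3.19% and 2.92%. Ccr4 with LOC1 and the alarmin Il25 with LOC3 were well above background only on the strain's array, so they could only come out higher. The other eotaxins Ccl11 and Ccl26 were not well above background on any array. Ccl7, a chemokine that also binds CCR3, was brighter by 0.29 with LOC1 and 0.23 with LOC3, and Ptgdr2, the prostaglandin receptor of Th2 cells, differed by -0.18 and -0.30. Ccl8, a further CC chemokine, differed between the strains, at 342 with LPS, 811 with LOC1 + LPS and 288 with LOC3 + LPS. Its log2 differences were 1.39 with LOC1 and -0.11 with LOC3, whereas the study's text names LOC3 as the only strain that raised it. The medians of the list were 0.00 and -0.11, with 2 genes left out with LOC3 for which no fold could be given.

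**Figure D4:**
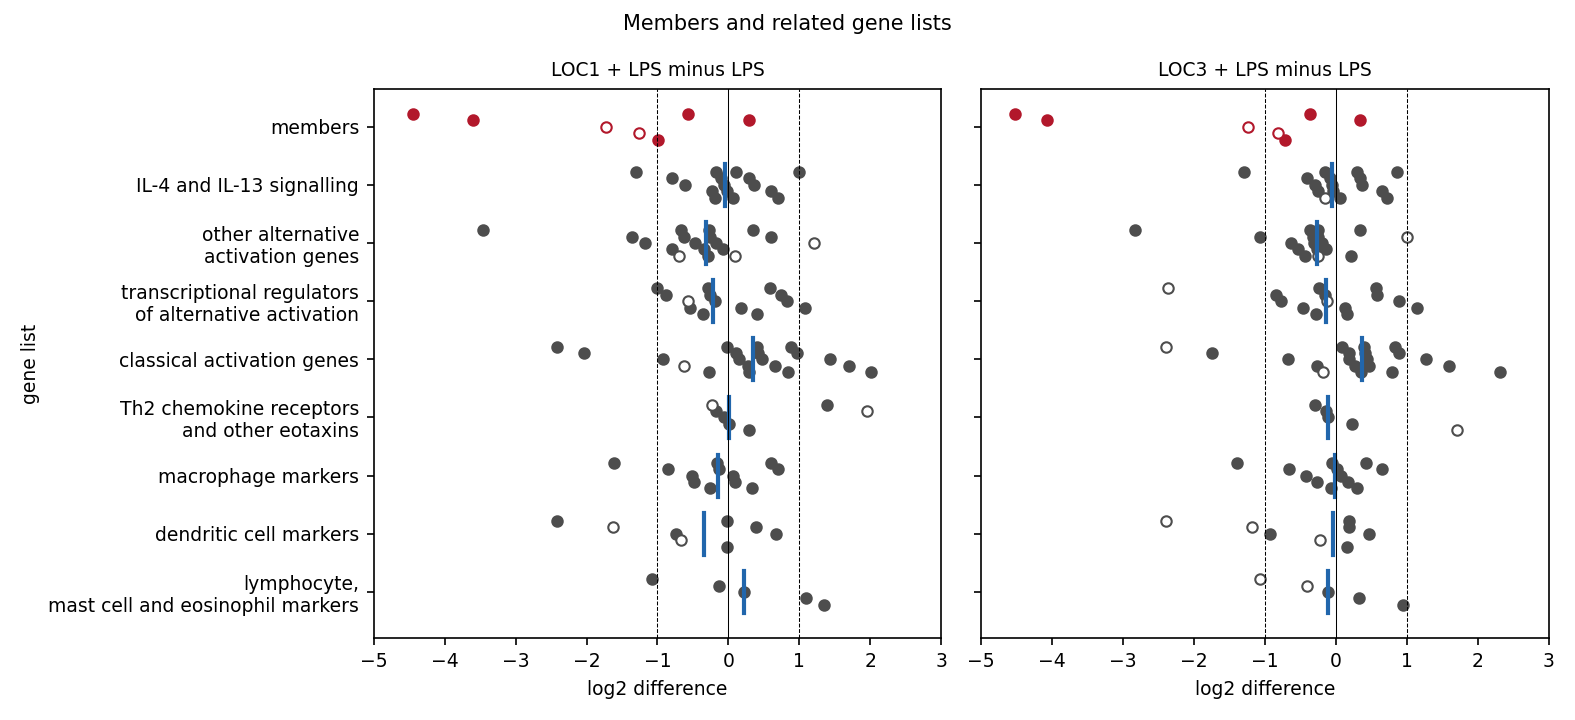
Log2 differences from the LPS array with LOC1 (left) and LOC3 (right) of the members (red) and of the genes of 8 lists (grey); filled circles were well above background on both arrays, open circles are bounds, blue bars are the lists' medians, and dashed lines mark 2-fold. Ccl17 and Ccl24 lie outside the range of every list, Il1r2 is the nearest list gene, and the lists' medians lie between -0.34 and 0.37.

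Markers of other cells were examined because Ccl17 and Ccl22 are also typical of dendritic cells. Of 12 dendritic cell markers, 5 were well above background on all arrays and 4 on none, H2-Eb1, Ciita, Clec9a and Cd207. Their summed intensity was 33780 with LPS, 30165 with LOC1 + LPS and 33867 with LOC3 + LPS, nearly all of it from Cd74. With each strain 2 of the 8 compared were at least 2-fold lower, Ccr7 and Xcr1, and 0 higher, beside 3.5% and 2.92% of all genes lower. Xcr1 and Flt3 were well above background with LPS alone, so their differences are bounds set by the background limit, as is that of Ccr7 with LOC3. With the bounds included, the medians were -0.34 and -0.04. Zbtb46, a transcription factor of classical dendritic cells, had 591 with LPS, 320 with LOC1 + LPS and 281 with LOC3 + LPS, while Batf3 was higher by 0.67 and 0.47 and Itgax by 0.39 and 0.19. Another Itgax probe, well above background only with LOC3 + LPS, stood at 3.13 there as a bound. Of 13 lymphocyte, mast cell and eosinophil markers, 8 were on no array well above background, among them Fcer1a, Cpa3 and Epx, and 3 were so on all, Cd3e, Cd4 and Gata3. Their summed intensity was 1648, 1823 and 1706 in the same order of groups. With LOC1, 2 of the 5 compared were at least 2-fold higher and 1 lower, beside 2.71% and 3.5% of all genes. With LOC3, 0 were higher and 1 lower, beside 3.19% and 2.92%. Gata3, the transcription factor of Th2 cells, read 237 on the LPS array, 548 on the LOC1 + LPS array and 414 on the LOC3 + LPS array, scaled log2 differences of 1.35 and 0.94. The macrophage markers summed to 587187 with LPS, 455375 with LOC1 + LPS and 495258 with LOC3 + LPS. These sums are intensities before scaling, with Lyz2 as the largest part. Per gene, 5 of the 12 macrophage markers were above 0 and 7 below with LOC1, and 6 above and 6 below with LOC3, with medians of -0.15 and -0.02. Of these, Fcgr3, an Fc receptor, was lower with both strains, by -1.62 and -1.39, Csf1r differed by -0.85 and -0.66, and Mertk by 0.70 and 0.65. The part of any of these markers in the values of the members was not tested. Every sample is a culture of the RAW264.7 line, and bulk RNA does not show how a transcript is spread over its cells.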

How the data were processed

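RNA from 3 conditions, 1 array each, was measured on 1-colour Agilent arrays (design 074809). The authors deposited the processed intensity of each spot, background-corrected by Feature Extraction 12.0.3.1 per the file headers, with no scaling between arrays. They also deposited log2 ratios made in GeneSpring, which are differences from 1 common reference, the unchallenged macrophages by the methods, and are listed only past 2-fold. For all 8425 probes with over 1 ratio, the implied reference agreed between columns within 0.001. The limma package and R 3.2.5 are named in the submitters' processing notes.

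Here the log2 intensity minus the 75th percentile over the 56605 non-control probes of each array was used. Spots of a probe were averaged without outlier spots, of which there were 118 to 135 per array. No spot was saturated. The brightest probe stood for a gene. Its symbol was checked through RefSeq accessions, which matched for 9 of 9 member probes. The members and lists were chosen with earlier results of these data known. Genes named from the lists were those past 2-fold with both strains and well above background on all arrays, filled up to 3 by the largest mean absolute difference, beside Stat6, Arg1, Nos2, Ccr4 and Ccr3. Il4, Il13, Il13ra2, Vegfa, Irf4, Ccr7, Xcr1, Flt3, Il25, Ms4a1, Ccl11, Ccl26, Cx3cl1 and the markers not well above background were named after their values were seen. Adgre1, Cd68, Lyz2 and Cd74 were also named outside the rule for list genes. The test of the methods needs more than 1 array per group and was not run. The single array per group limits the precision. The procedure was tested on simulated data. The simulation planted changes in single-probe genes well above background on all arrays, with the noise of bright probes. It did not test the bounds or the noise of dim probes. Alternatives were other scalings, normexp background correction (offset 50), other filters and a 3-fold threshold. Python 3.11.15, numpy 2.4.6, pandas 2.3.3, matplotlib 3.10.9, R 4.3.3 and limma 3.58.1 were used.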

Additional observations from a re-analysis of the deposited data

How the results depend on the processing

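Every difference of a member from the LPS array kept its sign under the alternatives that gave a value, all on the same arrays. For Ccl22 and Mrc1, well above background on the LPS array alone, a lower value was set in advance, so their sign is no check. Ccl17 ranged from -4.52 to -3.47 with LOC1 and from -4.61 to -3.46 with LOC3, Ccl24 from -3.67 to -2.86 and from -4.16 to -3.09, with the smallest sizes under normexp background correction. The members past 2-fold with LOC1 numbered 4, but 2 under normexp and 2 when both arrays had to be well above background, and with LOC3 2 to 4 against 3. Under normexp, Ccl22 had -0.28 and -0.24 and Mrc1 -0.47 and -0.26, under 2-fold. Il4ra with LOC1 passed 2-fold with the percentile over probes detected on all arrays (-1.06), quantile normalization (-1.07) and the percentile in the file headers (-1.02, chosen after seeing the data), and had -0.52 as the mean of its probes. The ratio of Ccl17 to unchallenged macrophages was 6.31 in place of 7.02 with its dim side raised to the limit. The strain difference of Ccl17 changed sign within the spot noise, from -0.10 to 0.01.

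Genes past 2-fold numbered 1244 with LOC1, 1209 with LOC3 and 510 between the strains. These became 421, 413 and 149 under normexp, 3796, 3716 and 2818 without filter and floor, and 405, 394 and 282 at 3-fold. When both arrays had to be well above background, they were 710 with LOC3 and 106 between the strains. Median scaling raised the median of all genes to 0.22 and 0.23, and turned the split of 543 higher and 701 lower with LOC1 to 890 and 465, and that of 632 and 577 with LOC3 to 889 and 376. With the percentile over probes detected on all arrays, the LOC3 split turned the other way, to 547 and 710. The percentile in the file headers turned it to 588 and 629. The share lower with LOC3, 47.7%, was 35.1% under normexp and 34.0% at 3-fold, and that between the strains, 30.4%, was 41.8% without filter and floor. No paired analysis was possible because each group had 1 array.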

Other observations

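Il25 was well above background on 1 array and Ms4a1 on 2. Il25, an alarmin of type 2 immunity, read 48.4 with LOC3 + LPS, where it was well above background, against 6.73 with LPS and 3.35 with LOC1 + LPS. Ms4a1, which encodes the B cell marker CD20, had an intensity of 55.9 with LOC1 + LPS and 29.0 with LPS, and 18.8 with LOC3 + LPS, which was not well above background. With 1 array per group, these signals have no replicate check.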
